A study of Mus musculus with 9 samples.

Results

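The 10 genes described here encode the kinases, adaptors and actin-binding proteins of the sealing zone, the ring of packed podosomes with which an osteoclast seals the bone surface that it resorbs. They are Src, Ptk2b, Cttn, Gsn, Scin, Vav3, Cbl, Tln1, Fermt3 and Vcl, and they were taken by symbol from a deposited table of 13526 genes in bulk RNA-Seq, where each has 1 row. All 10 passed the filter on low values (a normalized value of at least 10 in at least 3 libraries), as did 12932 genes in all. The cells were C57BL/6 mouse bone marrow macrophages, from mice 8 weeks old by the labels, grown for 3 days in α-MEM with 10% FBS and M-CSF at 10 ng/mL, and M-CSF is a survival factor of macrophages. Macrophages then received RANKL, the cytokine that turns them into osteoclasts, together with recombinant mouse Cst6 protein (rmCst6), an inhibitor of cysteine proteases, for 48 hours (3 libraries, also called both agents below), or RANKL alone for 48 hours (3 libraries), or neither (3 control libraries). The labels give neither the dose of RANKL and rmCst6 nor the culture of the control cells over those 48 hours, and what separates the 3 replicates of a group is not stated either. The p-values therefore rest on the spread between these libraries, which may be technical.

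In a podosome, a core of branched actin filaments is surrounded by a ring of adhesion proteins that tie the filaments to integrins in the membrane. Talin and kindlin bind integrin tails and switch the receptors on, and vinculin couples talin to actin. Src, Pyk2 (the product of Ptk2b) and Cbl act as a signaling complex at the osteoclast integrin αvβ3, Vav3 is an exchange factor for Rac, and cortactin (Cttn), gelsolin (Gsn) and scinderin (Scin) build, cut and cap the filaments. Mice without Src are known for osteoclasts that do not form a ruffled border and for dense bones.

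The values are log2 normalized expression as deposited, and fold changes were fitted with limma on that scale, so that genes near 0 change by more than their fold changes show. A gene was called at an adjusted p under 0.05 (limma, Benjamini-Hochberg over 12932 genes, two-sided). The RANKL label was checked with cathepsin K (Ctsk) and the acid phosphatase Acp5, which averaged 8.46 and 11.40 with RANKL plus rmCst6, 16.57 and 17.08 with RANKL and 6.08 and 7.48 in control. All 8 macrophage markers were detected in every group, with summed linear values of 226429 to 234000 per library with RANKL plus rmCst6, 156651 to 159937 with RANKL and 320759 to 332276 in control. They split with RANKL plus rmCst6 against RANKL. There, 4 were called higher (Adgre1, Itgam, Fcgr1 and Cd14), 2 lower (Csf1r and Mrc1) and 2 were not called (Cd68 and Mertk). After quantile normalization, 3 of these markers were called higher and 3 lower. The same sums over 8 osteoclast markers were 8700 to 11665, 491004 to 638123 and 1786 to 1879 in those groups, and Calcr was at 0 in all control libraries. Markers of other marrow cells were also present. All 8 neutrophil markers were higher with RANKL plus rmCst6 than with RANKL, with sums of 46101 to 53938 with RANKL plus rmCst6, 4545 to 8322 with RANKL and 12861 to 18756 in control. Of 5 megakaryocyte and platelet markers, 4 passed the filter and were higher with RANKL plus rmCst6 than with RANKL, with sums of 6379 to 8726, 680 to 973 and 8153 to 8953 in the same order, mostly from Pf4, and Gp1bb was at 0 in all control libraries. Of 6 stromal markers, 5 were higher with RANKL plus rmCst6 than with RANKL (sums of 3855 to 6635, 2959 to 3599 and 5847 to 9825), as were all 3 endothelial markers in the table (3281 to 3795, 332 to 363 and 128 to 202, mostly from Kdr, while Pecam1 was lower with RANKL plus rmCst6 than in control at -0.56) and both B and T cell markers in the table (184 to 221, 115 to 134 and 3715 to 4306). The part of these cells in the results on the 10 genes was not tested. In bulk RNA, fewer cells of a type and less RNA per cell cannot be told apart.

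With RANKL plus rmCst6 against RANKL, the genes did not move as a block: 6 of the 10 were called lower (Src, Cttn, Scin, Vav3, Tln1 and Vcl), 3 were called higher (Ptk2b, Cbl and Fermt3), and Gsn was not called. Over all tested genes, 38.0% were called lower and 34.8% higher, so calls in both directions were common. The libraries of the 2 groups did not overlap for 9 of the 10 genes, against 75.9% of all tested genes. The median log2 fold change was -0.34 over the 10 genes and -0.02 over all tested genes, and the median size of the change, regardless of sign, was 0.98 and 0.55. Called changes of at least 2-fold were seen in 5 of the 10 genes, Src, Ptk2b, Cttn, Scin and Vcl, against 27.8% of all tested genes.

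All 10 genes were called with RANKL against control, but the call of Tln1 was lost after quantile normalization (0.12) and after median centring (0.11). Src, Cttn, Gsn, Scin, Tln1 and Vcl were called higher (6 genes, against 36.6% of all tested genes) and Ptk2b, Vav3, Cbl and Fermt3 were called lower (4 genes, against 35.9%). The libraries did not overlap for any of the 10 genes, against 75.4% of all genes. The median log2 fold change was 0.31 over the 10 genes and -0.01 over all, and 5 of the genes were called with at least 2-fold changes, against 26.3% of all genes. With RANKL plus rmCst6 against control, 5 genes were called higher (Src, Ptk2b, Cttn, Gsn and Scin, against 36.7% of all genes), 4 were called lower (Vav3, Cbl, Tln1 and Vcl, against 35.1%), and Fermt3 was not called. There, 9 genes had groups that did not overlap, against 75.4%, and the median log2 fold change was 0.20 over the 10 genes and 0.01 over all. There, 4 of the genes were called with at least 2-fold changes, against 25.6% of all genes. The comparisons share libraries with each other, so each gene's values in the 3 comparisons are given side by side below.

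**Figure D1:**
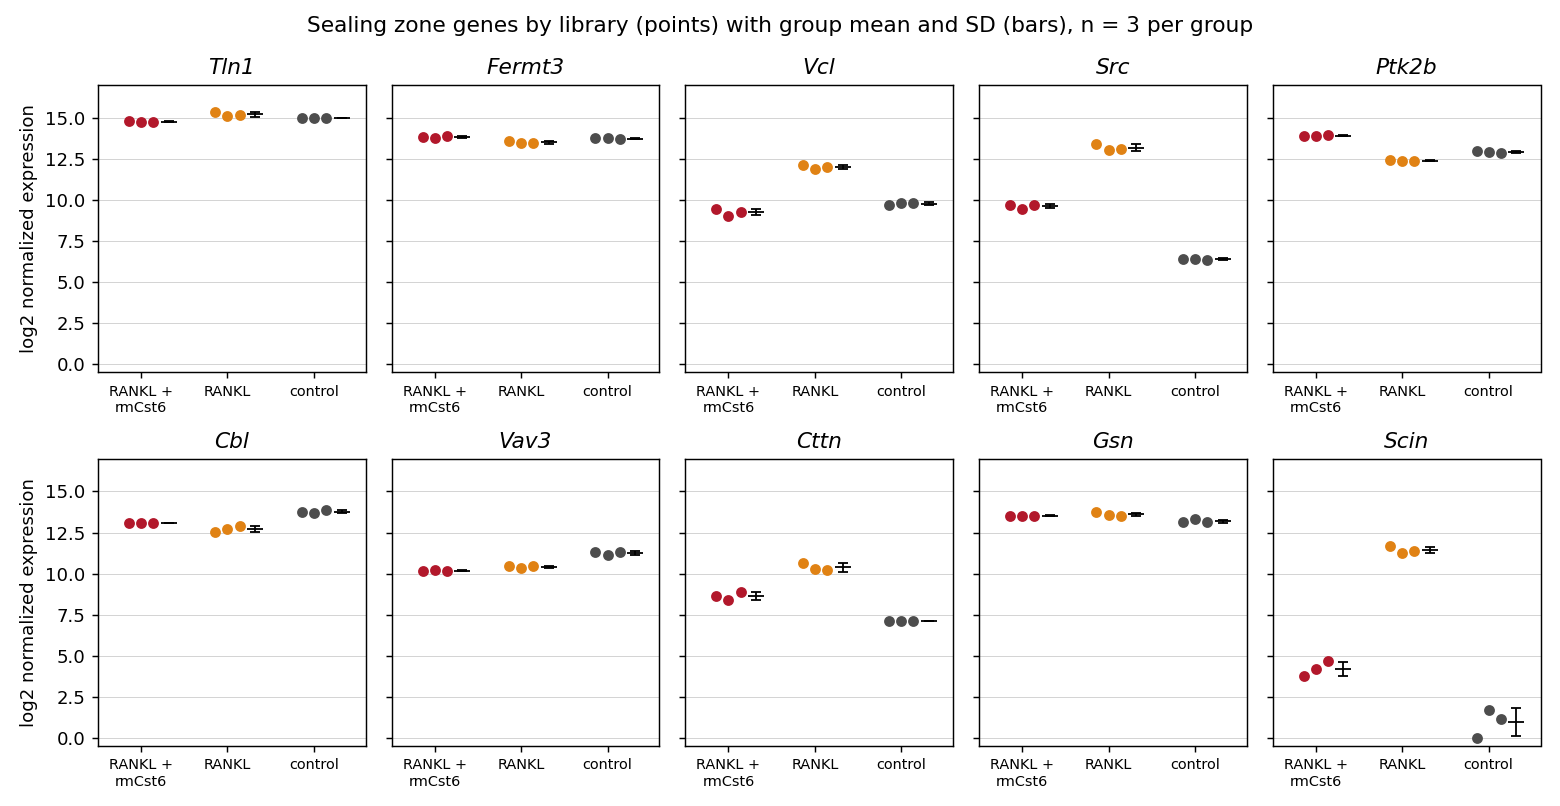
Log2 normalized expression (y axis) of the 10 genes in each library, with RANKL plus rmCst6 on the left, RANKL in the middle and control on the right (3 points each, bars for the mean and SD). Src, Scin and Vcl show wide gaps between groups, with Src at 9.45 to 9.70, 13.03 to 13.41 and 6.31 to 6.42, while the points of Gsn, Tln1 and Fermt3 lie within 1 log2 unit of each other across all groups.

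Of the adhesion proteins, the vinculin gene changed most. Vcl (ENSMUSG00000021823, GRCm38 chr14:20929398-21033676, plus strand) had log2 expression of 9.41, 9.04 and 9.26 with RANKL plus rmCst6, 12.14, 11.87 and 11.97 with RANKL and 9.68, 9.82 and 9.81 in control. The 3 groups do not overlap, and the libraries with both agents lie below even the control libraries. Vcl was 6.77-fold lower with both agents than with RANKL alone (log2 fold change -2.76, SE 0.093, adjusted p = 3.71e-11 from limma) and 4.67-fold higher with RANKL than in control (2.22, adjusted p = 4.16e-10). Against control, RANKL plus rmCst6 gave a 1.45-fold lower level (-0.53, adjusted p = 2.11e-04). A larger absolute change was found in 6.91% of tested genes with RANKL plus rmCst6 against RANKL, and in 6.98% with RANKL against control.

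The sequence just upstream of Vcl is shown because the CArG box, the site bound by serum response factor in many actin cytoskeleton genes, was found there and in the window of no other matched member. It is the 250 bases before the RefSeq start, GRCm38.p6 chr14:20929148-20929397, plus strand, with the CArG box in capitals.
Vcl: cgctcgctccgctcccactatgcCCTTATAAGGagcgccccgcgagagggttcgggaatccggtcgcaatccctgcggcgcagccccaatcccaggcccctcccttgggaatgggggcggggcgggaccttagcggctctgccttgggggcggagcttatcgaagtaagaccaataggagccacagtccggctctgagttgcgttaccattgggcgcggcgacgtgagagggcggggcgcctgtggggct
The box begins 227 bases before the start and reads the same on both strands. A CArG box was present in 1.47% of all 32851 windows of that length, and factor binding was not measured here.

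Tln1 and Fermt3 encode the integrin activators talin-1 and kindlin-3, the main forms of blood cells, and both stayed at high levels in every group. Tln1 (ENSMUSG00000028465, chr4:43531519-43562691, minus strand) had values of 14.80, 14.73 and 14.75 with RANKL plus rmCst6, 15.34, 15.10 and 15.16 with RANKL and 14.98, 14.98 and 14.99 in control. The groups do not overlap, but the whole range is under 1 log2 unit. Tln1 was 1.36-fold lower with both agents than with RANKL alone (log2 fold change -0.44, SE 0.059, adjusted p = 2.14e-05 from limma) and lower than control by a small margin (-0.22, adjusted p = 0.00456). The rise with RANKL over control was as small (0.22, adjusted p = 0.00516), and it was 0.12 and not called after quantile normalization and 0.11 and not called after median centring, which itself moved the median of all genes in that comparison to -0.12.

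Fermt3 (ENSMUSG00000024965, chr19:6998958-7019469, minus strand) went the other way from Tln1. Its values were 13.81, 13.74 and 13.89 with RANKL plus rmCst6, 13.60, 13.44 and 13.46 with RANKL and 13.74, 13.75 and 13.69 in control. The libraries with RANKL alone lie below all others, and those of the other 2 groups overlap. Fermt3 was 1.24-fold higher with RANKL plus rmCst6 than with RANKL (0.31, SE 0.053, adjusted p = 1.90e-04 from limma) and 1.17-fold lower with RANKL than in control (-0.22, adjusted p = 0.00224). RANKL plus rmCst6 and control differed by 0.09 (95% interval -0.03 to 0.20, adjusted p = 0.168). Platelets also carry talin-1 and kindlin-3, and the platelet marker sums above were higher with RANKL plus rmCst6 than with RANKL. Their part in the values of Fermt3 and Tln1 was not tested. The spans of Tln1, Fermt3 and Vcl overlap those of genes on the other strand (Creb3, Trpt1 and Ap3m1). Those of Cttn and Gsn overlap genes on the same strand (Gm14376 and Gm43128). The span of Cbl overlaps 5830462O15Rik on the same strand and Gm47255 on the other. Of these overlapping genes, only Creb3, Trpt1 and Ap3m1 are in the deposited table. Overlap of exons was not examined. The libraries were stranded, but no source used here says whether the counting used strand.

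In the wider list of talin, kindlin, vinculin and adhesion ring genes, 11 of 16 tested genes were lower with both agents than with RANKL alone. Another 2 were higher (Fermt3 and Parvg) and 3 were not called (Fermt2, Vasp and Parva), with a median of -0.51 over the list. With RANKL against control 10 were higher, 5 lower and 1 not called (median 0.26). Over all tested genes, 38.0% were called lower and 34.8% higher with RANKL plus rmCst6 against RANKL. The shares with RANKL against control were 36.6% higher and 35.9% lower. These shares of all tested genes also stand beside the counts of the lists below. Actn1, which encodes the actin crosslinker α-actinin-1, averaged 11.49 with RANKL plus rmCst6, 13.44 with RANKL and 11.94 in control, a log2 fold change of -1.95 with RANKL plus rmCst6 against RANKL. Parvb, a parvin that joins integrin-linked kinase to actin, was lower by a similar amount (-2.04), and its level of 9.91 with RANKL plus rmCst6 was also below the 11.12 of control (-1.20, adjusted p = 7.19e-08 from limma). Zyx, the zyxin gene, was at 10.64 with RANKL plus rmCst6, 11.37 with RANKL and 12.31 in control. Tln2, the other talin gene, was at 5.31, 6.81 and 6.03 in the same groups and contributed only 0.0754%, 0.159% and 0.106% of talin RNA per kb of exon. Fermt2 (kindlin-2) likewise made up 0.389%, 0.373% and 0.826% of kindlin RNA per kb. Its difference with RANKL plus rmCst6 against RANKL was 0.43 (adjusted p = 0.208), and it was called, at 0.75, without RANKL replicate 2. Ctnna1, a vinculin relative of cell-cell junctions, was lower with both agents than with RANKL alone (-0.96, adjusted p = 7.70e-10 from limma).

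The genes of the kinases Src and Pyk2, which work together at the integrin, were called in opposite directions with RANKL plus rmCst6 against RANKL and with RANKL against control, and both were called higher with RANKL plus rmCst6 than in control. Src (ENSMUSG00000027646, chr2:157418444-157471862, plus strand) had values of 9.67, 9.45 and 9.70 with RANKL plus rmCst6, 13.41, 13.03 and 13.11 with RANKL and 6.38, 6.42 and 6.31 in control. The 3 groups are far apart, with the libraries of both agents between the others. On the linear scale this is a mean of 781, 9361 and 81.6 normalized units. Src had log2 fold changes of -3.58 with RANKL plus rmCst6 against RANKL (SE 0.099, adjusted p = 5.71e-12 from limma), 6.82 with RANKL against control (113-fold higher, adjusted p = 9.83e-14) and 3.24 with RANKL plus rmCst6 against control (adjusted p = 1.70e-11). Only 0.371% of tested genes had a larger absolute change with RANKL against control, and 4.11% with RANKL plus rmCst6 against RANKL.

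Ptk2b (ENSMUSG00000059456, chr14:66153257-66281052, minus strand) had values of 13.90, 13.88 and 13.92 with RANKL plus rmCst6, 12.42, 12.36 and 12.35 with RANKL and 12.97, 12.90 and 12.87 in control. Here the libraries with both agents are the highest and those with RANKL alone the lowest, without overlap. Ptk2b was 2.87-fold higher with RANKL plus rmCst6 than with RANKL (log2 fold change 1.52, SE 0.042, adjusted p = 5.33e-12 from limma), 1.45-fold lower with RANKL than in control (-0.54, adjusted p = 1.38e-07) and 1.98-fold higher with RANKL plus rmCst6 than in control (0.99, adjusted p = 3.72e-10). The neutrophil marker sums above moved in the same direction as Ptk2b in all 3 comparisons, and their part in its change was not tested.

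**Figure D2:**
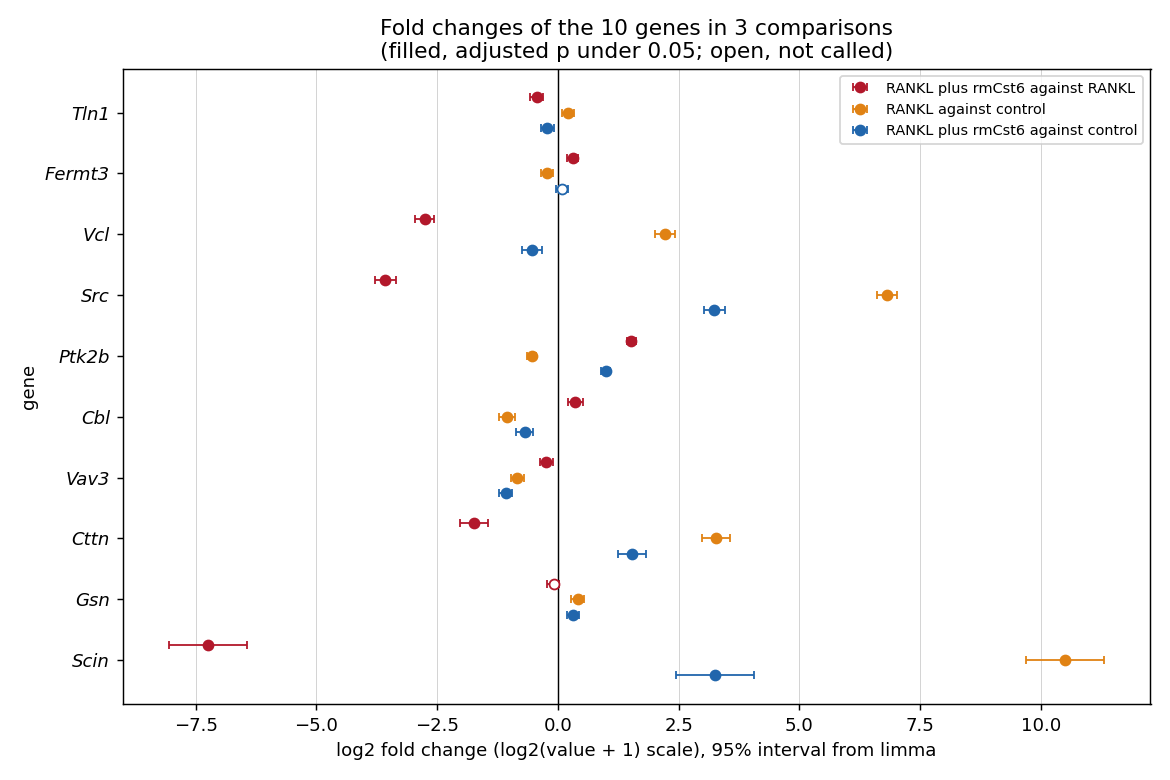
Log2 fold change (x axis, log2(value + 1) scale) of each gene (y axis) with RANKL plus rmCst6 against RANKL (red), RANKL against control (orange) and RANKL plus rmCst6 against control (blue). Points are limma estimates, bars are 95% intervals and open points were not called. Src, Cttn, Scin and Vcl lie far to the left with RANKL plus rmCst6 against RANKL (-3.58, -1.74, -7.24 and -2.76), Ptk2b lies to the right (1.52), and the other genes are within 0.5 of 0.

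Other kinases of the Src family moved in both directions. Lyn, a kinase of myeloid and B cells, averaged 13.33 with RANKL plus rmCst6, 12.18 with RANKL and 13.37 in control, and its log2 fold change with RANKL plus rmCst6 against RANKL was 1.15 (adjusted p = 6.14e-11 from limma). Fgr, a kinase of myeloid cells, averaged 9.96, 11.11 and 8.48 in those groups and, like Src, was lower with both agents than with RANKL alone (-1.15, adjusted p = 1.84e-07) and higher with RANKL than in control (2.63, adjusted p = 9.98e-11). Ptpn12, the phosphatase PTP-PEST, which acts on podosome proteins, was at 11.80, 13.07 and 11.78 in the 3 groups and was lower with both agents than with RANKL alone (-1.27, adjusted p = 3.47e-11). Fyn was higher with RANKL plus rmCst6 than with RANKL (0.39, adjusted p = 0.0012 from limma). Yes1 was near the floor, at 2.52, 0 and 3.28 with RANKL plus rmCst6 and 3.37 to 3.69 in the other libraries. Its call with RANKL plus rmCst6 against RANKL (-1.64, adjusted p = 0.0429) was lost in 7 of the 9 fits with 1 library left out, and its fold change was -0.67 without RANKL plus rmCst6 replicate 2, the library at 0.

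The focal adhesion kinase gene Ptk2, the relative of Ptk2b, was at 10.63 with RANKL plus rmCst6, 9.13 with RANKL and 8.59 in control. It was higher with RANKL plus rmCst6 than with RANKL by 1.51 (adjusted p = 5.08e-09 from limma), close to the 1.52 of Ptk2b, and Ptk2b held 93.9%, 93.8% and 97.0% of the pair's RNA per kb. With the longest transcript as the length, the share of Ptk2b was 91.8%, 91.7% and 95.9% in the same order. Unlike Ptk2b, Ptk2 was higher with RANKL than in control (0.54, adjusted p = 9.00e-05). Among the 10 focal adhesion kinases and docking proteins, 6 were higher and 2 lower with RANKL plus rmCst6 against RANKL (median 0.46), and 5 were higher and 5 lower with RANKL against control (median -0.11). The paxillin family split in the first of these. Lpxn, the leupaxin gene, averaged 13.15 with RANKL plus rmCst6, 11.07 with RANKL and 11.86 in control (2.08 with RANKL plus rmCst6 against RANKL, adjusted p = 3.11e-11). Pxn, the paxillin gene, averaged 12.47, 13.23 and 12.53 (-0.76, adjusted p = 9.53e-08 from limma).

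Cbl and Vav3, the adaptor and the exchange factor downstream of Src, both changed by less than Src in all 3 comparisons, and by less than Ptk2b with RANKL plus rmCst6 against RANKL. Cbl (ENSMUSG00000034342, chr9:44142976-44234049, minus strand), an E3 ubiquitin ligase and a substrate of Src, had values of 13.09, 13.07 and 13.05 with RANKL plus rmCst6, 12.53, 12.70 and 12.89 with RANKL and 13.77, 13.66 and 13.85 in control. The groups do not overlap and control is highest. Cbl was 1.29-fold higher with RANKL plus rmCst6 than with RANKL (log2 fold change 0.36, SE 0.077, adjusted p = 9.38e-04 from limma), and lower than control with RANKL (-1.06, adjusted p = 7.73e-08) and with RANKL plus rmCst6 (-0.69, adjusted p = 4.11e-06). Its relative Cblb averaged 10.90, 10.78 and 9.77 in the 3 groups, so that Cbl held 79.3% ± 0.75 of the pair's RNA per kb with RANKL plus rmCst6, 76.3% ± 3.1 with RANKL and 93.1% ± 0.5 in control (SD, n = 3 each). With the longest transcript as the length, the share of Cbl was 72.5%, 68.9% and 90.3% in the same order. The difference of Cblb with RANKL plus rmCst6 against RANKL was 0.12 (adjusted p = 0.0952), and it was called, at 0.16, without RANKL replicate 1.

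In the Cbl and PI3K module, 5 of 8 genes were lower and 2 higher with RANKL plus rmCst6 against RANKL (median -0.16; 5 lower and 1 higher after quantile normalization, 4 lower and 3 higher after median centring), and 5 were lower and 2 higher with RANKL against control (median -0.20). Sh3kbp1, which encodes the Cbl-binding adaptor CIN85, averaged 11.48 with RANKL plus rmCst6, 12.55 with RANKL and 11.90 in control (-1.07 with RANKL plus rmCst6 against RANKL, adjusted p = 3.28e-10 from limma). The PI3K subunit genes Pik3r1 and Pik3ca were lower by 0.44 and 0.31 on the log2 scale in that comparison (log2 fold changes -0.44 and -0.31).

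Vav3 (ENSMUSG00000033721, chr3:109340653-109685698, plus strand) had values of 10.13, 10.21 and 10.17 with RANKL plus rmCst6, 10.43, 10.32 and 10.47 with RANKL and 11.31, 11.12 and 11.31 in control. All libraries with both agents lie just below those with RANKL alone, and control lies above both. Vav3 was 1.18-fold lower with both agents than with RANKL alone (log2 fold change -0.24, SE 0.065, adjusted p = 0.00535 from limma), lower with RANKL than in control (-0.84, adjusted p = 1.30e-07) and lower still with RANKL plus rmCst6 against control (-1.08, adjusted p = 1.11e-08). Vav1, the main Vav of blood cells, averaged 13.22 with RANKL plus rmCst6, 12.14 with RANKL and 12.57 in control. Vav3 held 6.44% ± 0.29 of Vav RNA per kb with RANKL plus rmCst6, 13.5% ± 0.59 with RANKL and 17.4% ± 1.2 in control (SD, n = 3 each), while Vav1 held 86.8%, 73.1% and 70.7%. Vav2 was at 10.44, 10.60 and 10.91, and its call with RANKL plus rmCst6 against RANKL (-0.17, adjusted p = 0.0184 from limma) was lost without RANKL replicate 3 or without RANKL plus rmCst6 replicate 2 (-0.15 in each) and after median centring (-0.13).

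Among 10 Vav, Dock and other exchange factors, 6 were lower and 3 higher with RANKL plus rmCst6 against RANKL (median -0.20; 5 lower and 4 higher after median centring), and 6 were lower and 4 higher with RANKL against control (median -0.34). The Dock genes split. Dock5, a Rac exchange factor needed for resorption in mouse osteoclasts, averaged 10.72 with RANKL plus rmCst6, 13.39 with RANKL and 10.51 in control, with a log2 fold change of -2.67 with RANKL plus rmCst6 against RANKL (adjusted p = 1.31e-12 from limma). Dock2, the Rac exchange factor of leukocytes, averaged 13.68, 12.59 and 13.40 (1.09, adjusted p = 1.68e-10). The cytoskeletal kinase gene Rock2 was lower with both agents than with RANKL alone (-0.60), and the formin gene Diaph1 and the GTPase-activating protein gene Arap1 were higher (0.40 and 0.46).

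With RANKL plus rmCst6 against RANKL, the actin core genes Scin and Gsn had the largest and the smallest change of the 10. Cttn (ENSMUSG00000031078, chr7:144435733-144471009, minus strand), a Src substrate that stabilizes branched actin, had values of 8.64, 8.40 and 8.86 with RANKL plus rmCst6, 10.66, 10.26 and 10.19 with RANKL and 7.09, 7.08 and 7.10 in control. The groups do not overlap, and the libraries with both agents lie between the others, as for Src. Cttn was 3.33-fold lower with both agents than with RANKL alone (log2 fold change -1.74, SE 0.13, adjusted p = 1.17e-07 from limma), 9.69-fold higher with RANKL than in control (3.28, adjusted p = 3.55e-10) and 2.91-fold higher with RANKL plus rmCst6 than in control (1.54, adjusted p = 4.04e-07). Its blood cell relative Hcls1 averaged 13.21, 12.46 and 12.96 in the 3 groups, and was called higher with RANKL plus rmCst6 against RANKL (0.75, adjusted p = 1.03e-07), lower with RANKL against control (-0.50, adjusted p = 4.91e-06) and higher with RANKL plus rmCst6 against control (0.24, adjusted p = 0.00195 from limma). Cttn made up 2.48% ± 0.38 of the pair's RNA per kb with RANKL plus rmCst6, 12.4% ± 1.1 with RANKL and 1.01% ± 0.055 in control (SD, n = 3 each).

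Scin and Gsn encode calcium-dependent severing proteins of one family, and they are shown together because the data differ so much between them. Scin (ENSMUSG00000002565, chr12:40059769-40134228, minus strand) had values of 3.77, 4.19 and 4.64 with RANKL plus rmCst6, 11.65, 11.28 and 11.37 with RANKL and 0, 1.67 and 1.14 in control. The groups do not overlap, and only the libraries with RANKL alone are far from the floor, with a linear mean of 2781 normalized units against 17.9 with RANKL plus rmCst6 and 1.13 in control. The log2 fold change was -7.24 with RANKL plus rmCst6 against RANKL (151-fold lower, SE 0.37, adjusted p = 2.10e-09 from limma), and 0.34% of tested genes had a larger absolute change. With RANKL against control it was 10.50 (adjusted p = 9.88e-11), the fifth largest absolute change of all tested genes, and with RANKL plus rmCst6 against control 3.26 (adjusted p = 5.02e-06). Since 1 control library was listed at 0, the last 2 depend on the scale. With a further 8 added to each linear value they were 8.10 and 1.39, and the first was -6.71.

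Gsn (ENSMUSG00000026879, chr2:35256380-35307892, plus strand) had values of 13.53, 13.48 and 13.53 with RANKL plus rmCst6, 13.72, 13.58 and 13.52 with RANKL and 13.15, 13.30 and 13.14 in control. The libraries with RANKL plus rmCst6 overlap those with RANKL, and all of them lie above control. The difference with RANKL plus rmCst6 against RANKL was -0.09 (95% interval -0.22 to 0.03, adjusted p = 0.167 from limma), and it was called lower, at -0.17, after quantile normalization. Gsn was 1.33-fold higher with RANKL than in control (0.41, SE 0.058, adjusted p = 3.81e-05) and 1.25-fold higher with RANKL plus rmCst6 than in control (0.32, adjusted p = 3.35e-04).

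The upstream sequences of these 2 paralogs are printed to set their different behavior beside their letters, as the 250 bases before the RefSeq start on GRCm38.p6, chr12:40134229-40134478 on the minus strand for Scin and chr2:35256109-35256358 on the plus strand for the first of 3 Gsn starts. Capitals mark GGAAA, the core of NFAT sites, and GAGGAA, a PU.1 site, on either strand.
Scin: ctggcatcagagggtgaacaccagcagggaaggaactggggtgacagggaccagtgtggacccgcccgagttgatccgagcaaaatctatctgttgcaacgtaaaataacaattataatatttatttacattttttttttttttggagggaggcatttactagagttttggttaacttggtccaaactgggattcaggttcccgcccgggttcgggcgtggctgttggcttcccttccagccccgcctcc
Gsn: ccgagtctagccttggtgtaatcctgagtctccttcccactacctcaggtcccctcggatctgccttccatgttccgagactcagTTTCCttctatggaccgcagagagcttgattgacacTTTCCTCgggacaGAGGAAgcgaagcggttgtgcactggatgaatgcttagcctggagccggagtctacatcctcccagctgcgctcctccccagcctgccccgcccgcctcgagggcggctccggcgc
The Scin window held none of the 7 motifs searched. The first Gsn window held GGAAA beginning 165 and 129 bases and GAGGAA beginning 128 and 116 bases before the start. Its matches at 129 and 128 overlap. The window of the second Gsn start held none of the 7 motifs either. That of the third held only GGAAA, beginning 137 bases before its start. Which Gsn start the cells used was not measured. GGAAA is in 55.6% and GAGGAA in 23.3% of the 32851 windows. GC content was 49.2% for Scin and 60.8% for the first Gsn window. Across the 12 windows of the 8 members that were matched, the AP-1 site TGANTCA (6.75% of all windows) was found for Vav3, GGAAA for Cbl, Fermt3, Gsn and Vav3, and GAGGAA for Cbl, Gsn, Src and Tln1. The Vav3 matches lie only in the window of a start 233354 bases inside the gene. The windows at the beginning of Vav3 held none of the motifs. The only Src window lies before a start 5849 bases inside the gene and overlaps an exon of Src. The Tln1 window overlaps exons of Tln1 and Creb3, and the Cbl window overlaps an exon of Cbl. The E-box CACGTG (6.02%), the interferon-stimulated response element (2.98%) and the NF-κB site (1.41%) were found for none. Both strands were searched, and GGAAA can lie within the NF-κB site or overlap GAGGAA. Ptk2b and Cttn were not matched.

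Within the gelsolin family, Scin made up 0.0331% ± 0.0091 of the RNA per kb with RANKL plus rmCst6, 5.19% ± 0.29 with RANKL and 0.00463% ± 0.0043 in control (SD, n = 3 each). Gsn made up 20.7% ± 0.73, 22.2% ± 0.48 and 37.3% ± 0.5 in the same groups (SD, n = 3 each). The largest share in each group was that of Capg, a capping protein that does not sever, with 71.0% ± 0.95, 62.2% ± 0.19 and 45.7% ± 0.74 (SD, n = 3 each). The summed level of the family was 17909 ± 869 per kb with RANKL plus rmCst6, 17819 ± 1592 with RANKL and 7979 ± 422 in control (SD, n = 3 each), so that the first 2 differed by less than their spread. With the longest transcript as the length, the share of Scin was 0.0203% with RANKL plus rmCst6 and 3.31% with RANKL, and that of Gsn was 15.1% and 16.8%, against 29.9% in control. Of 5 tested family genes, 2 were lower (Scin, and Flii at -0.32), 1 higher (Capg) and 2 not called (Gsn and Svil) with RANKL plus rmCst6 against RANKL (median -0.23), and after quantile normalization 3 were lower and 0 higher. Capg had a log2 fold change of 0.20 (adjusted p = 0.0229), which was -0.14 after quantile normalization and lost its call without RANKL replicate 2 (0.17), RANKL replicate 3 (0.16) or RANKL plus rmCst6 replicate 3 (0.15). Svil, the supervillin gene, had -0.23 (adjusted p = 0.0588), and was called without RANKL replicate 2 (-0.31) or without RANKL plus rmCst6 replicate 1 (-0.35). With RANKL against control 4 were higher and 1 was lower, Svil at -1.46 (median 0.63).

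**Figure D3:**
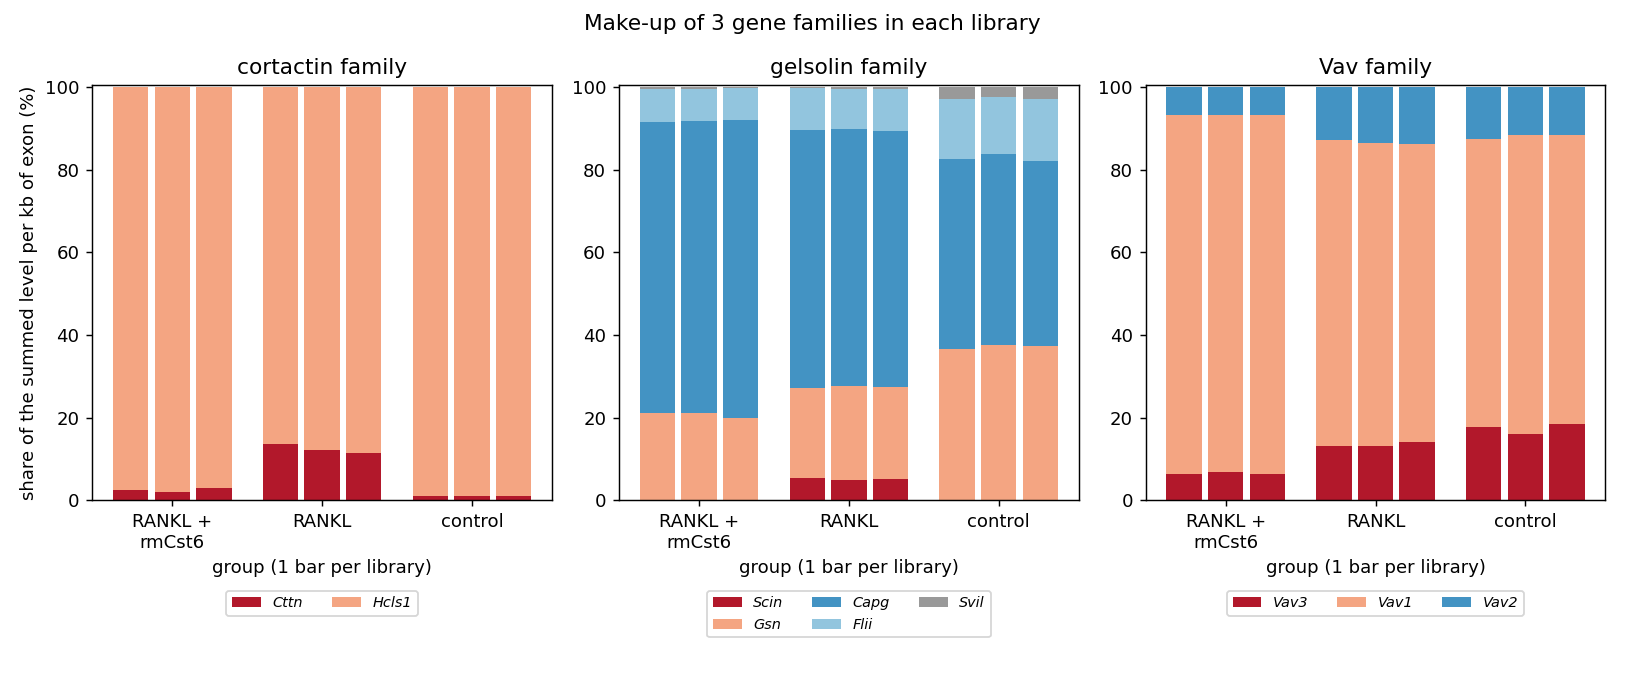
Share (y axis, percent) of each gene in the summed level per kb of exon of the cortactin pair, the gelsolin family and the Vav family, with 1 bar per library and RANKL plus rmCst6, RANKL and control from left to right. Cttn (2.48%, 12.4% and 1.01% on average) and Scin (0.0331%, 5.19% and 0.00463%) hold their largest shares with RANKL alone, and Vav3 (6.44%, 13.5% and 17.4%) is lowest with RANKL plus rmCst6.

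Of 14 genes of actin nucleation and the podosome core, 7 were higher, 2 lower and 5 not called with RANKL plus rmCst6 against RANKL (median 0.10), but 4 higher and 5 lower after quantile normalization. With RANKL against control, 5 were higher and 4 lower (median 0.01; 5 and 6 after quantile normalization, 4 and 7 after median centring). The 2 lower genes with RANKL plus rmCst6 were Cttn and Sh3pxd2a, which encodes the podosome scaffold Tks5, a Src substrate. Sh3pxd2a averaged 7.92 with RANKL plus rmCst6, 12.20 with RANKL and 10.67 in control. It was below control with both agents (-2.75, adjusted p = 2.97e-11 from limma) and its fold change with RANKL plus rmCst6 against RANKL was larger in size than that of Src (-4.28, adjusted p = 5.15e-13). Was, which encodes the Arp2/3 activator WASP, averaged 11.93, 11.54 and 11.98 in the 3 groups (0.40 with RANKL plus rmCst6 against RANKL, adjusted p = 5.83e-06).

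Of the genes of actin itself and of the proteins that turn it over, 8 of 12 were lower and 4 higher with RANKL plus rmCst6 against RANKL (median -0.16), and 7 higher and 3 lower with RANKL against control (median 0.57). Actg1, the γ-actin gene, had 14.62, 14.52 and 14.49 with RANKL plus rmCst6, 16.64, 16.56 and 16.54 with RANKL and 15.53, 15.56 and 15.52 in control, and thus lay below control with both agents (-0.99, adjusted p = 2.59e-09 from limma). The cofilin cofactor gene Wdr1 and the coronin gene Coro1c were lower with both agents than with RANKL alone (-0.78 and -0.57). Of 10 non-muscle myosin genes, 5 were lower, 2 higher and 3 not called in that comparison (median -0.17; 7 lower and 1 higher after quantile normalization), and 5 were higher and 3 lower with RANKL against control (median 0.16). Myo10, a myosin of filopodia and podosomes, averaged 9.97 with RANKL plus rmCst6, 12.96 with RANKL and 9.02 in control (-2.99 with RANKL plus rmCst6 against RANKL, adjusted p = 3.62e-11). Myo5a and Myo1e were lower by the same comparison (-1.07 and -1.05).

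Among the integrin genes, Itgb3 had the largest fall in these lists after Scin. Of 6 podosome integrin and CD44 genes, 3 were lower (Itgb3, Itgav and Cd44), 1 higher and 2 not called with RANKL plus rmCst6 against RANKL (median -0.28; 5 lower and 0 higher after quantile normalization), and 5 were higher and 1 lower with RANKL against control (median 0.56). Itgb3, the β3 chain of the osteoclast vitronectin receptor, had 7.74, 7.09 and 7.36 with RANKL plus rmCst6, 13.12, 12.64 and 12.66 with RANKL and 7.32, 7.15 and 7.49 in control. Its libraries with both agents overlap control, with a difference of 0.08 (adjusted p = 0.696 from limma), and its log2 fold change with RANKL plus rmCst6 against RANKL was -5.41 (adjusted p = 1.43e-11). Itgav, the αv chain, averaged 12.49, 14.22 and 11.56, and Cd44, a receptor of the podosome core, averaged 13.17, 13.76 and 13.05 in the 3 groups. All 8 osteoclast markers above were, like Src, Cttn, Scin, Vcl and Itgb3, lower with both agents than with RANKL alone. Against control they differed among themselves, with 5 called higher with RANKL plus rmCst6, Atp6v0d2 called lower (-2.72, as Vcl was) and Dcstamp and Ocstamp not called. Their part in these results was not tested.

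**Figure D4:**
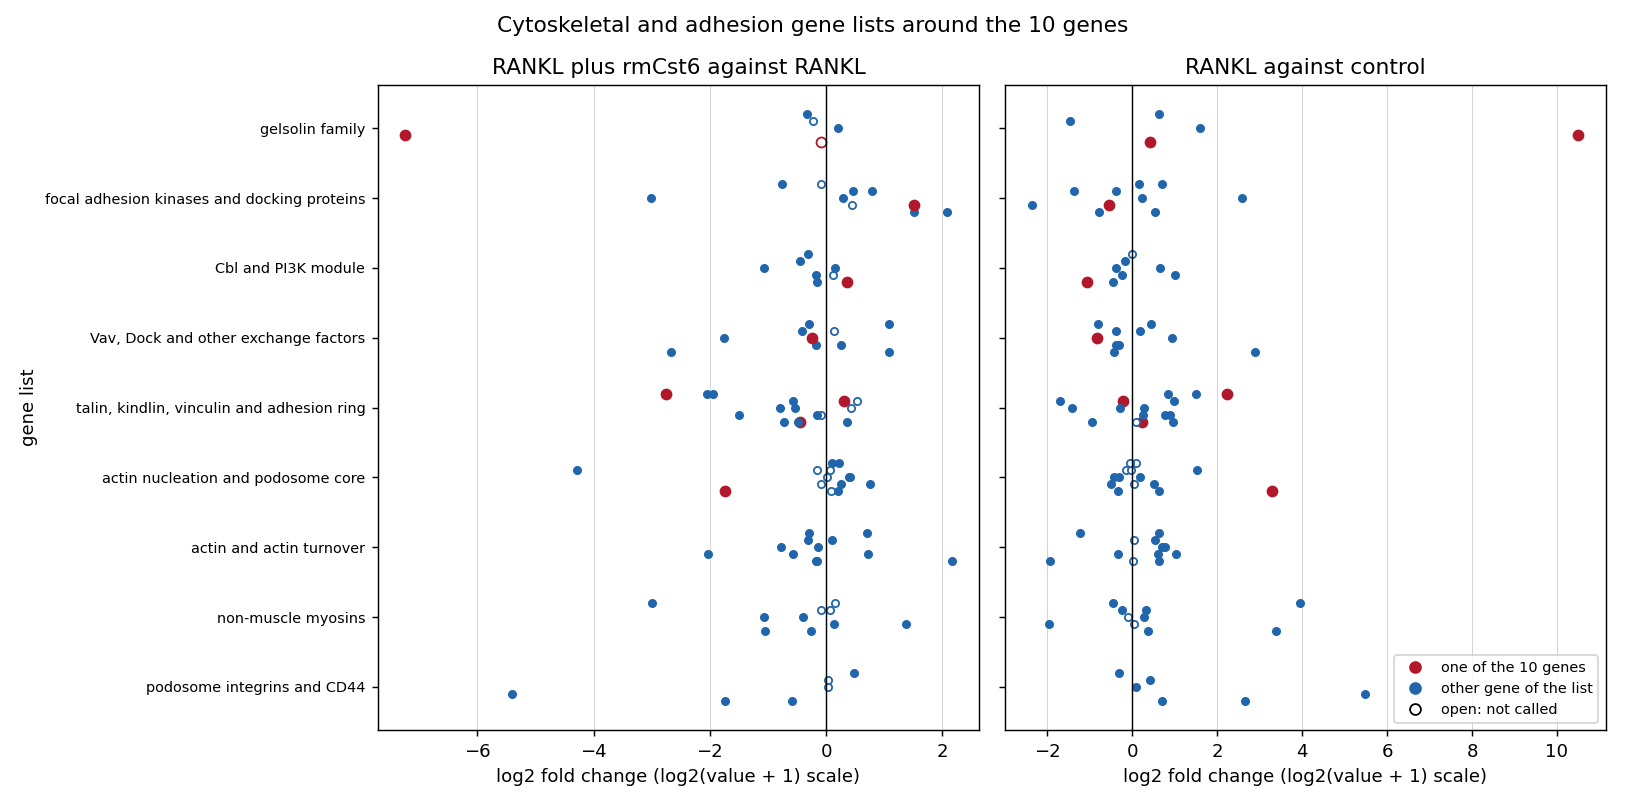
Log2 fold change (x axis, log2(value + 1) scale) of each tested gene in 9 cytoskeletal and adhesion lists (y axis), with RANKL plus rmCst6 against RANKL on the left and RANKL against control on the right. Each point is a gene, red for the 9 members that these lists hold (all but Src) and blue for the others, open where not called. Scin (-7.24), Itgb3 (-5.41) and Sh3pxd2a (-4.28) lie farthest to the left in the left panel, and the medians of the lists lie between -0.51 and 0.46.

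Ordered by level per kb of exon, the 10 genes ranked differently in the 3 groups. With RANKL plus rmCst6, Gsn was highest (3702 ± 71.2), followed by Tln1 (2832 ± 79.1), Fermt3 (2488 ± 131) and Ptk2b (2067 ± 30.8), with Cbl (696 ± 11.5) in the middle, Vav3 (192 ± 5.86) and Src (179 ± 15.9) within their spread of each other, then Cttn (95.3 ± 15.2), Vcl (73.9 ± 9.21) and Scin (5.97 ± 1.88; SD, n = 3 for all). With RANKL alone, Gsn (3955 ± 287) and Tln1 (3846 ± 338) were within their spread, as were Src (2142 ± 311) and Fermt3 (2009 ± 122), followed by Scin (927 ± 126), Ptk2b (719 ± 19.7), Cbl (544 ± 68.2), Vcl (500 ± 48.2), Cttn (318 ± 57.7) and Vav3 (226 ± 12.2; SD, n = 3 for all). In control, Tln1 (3301 ± 16.3), Gsn (2975 ± 185) and Fermt3 (2343 ± 44.6) led, Cbl (1126 ± 72) and Ptk2b (1044 ± 35.1) followed, and Vav3 (406 ± 30.7), Vcl (107 ± 5.79), Cttn (32.3 ± 0.239), Src (18.7 ± 0.733) and Scin (0.377 ± 0.365) were lowest (SD, n = 3 for all). Src was thus the third gene in order with RANKL alone, within its spread of Fermt3, the seventh with RANKL plus rmCst6 and the ninth in control. This order depends on the length used. With the longest transcript in place of the merged exons, Fermt3 was first with RANKL plus rmCst6 (4816 per kb, Gsn 4405) and in control (4536, Tln1 3855), and Src was below Fermt3 with RANKL alone (2397, Fermt3 3890), while its places with RANKL plus rmCst6 and in control remained the seventh and the ninth.

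The genes whose log2 values ran closest to each member across the 9 libraries, once each gene was centred on its own mean, were found by root mean square distance, as a description. Src was nearest to Cav1, the caveolin-1 gene (distance 0.27 log2 units), Cyb561 (0.43) and Fam83g (0.48), and no gene lay within 0.2. Cav1 averaged 8.68 with RANKL plus rmCst6, 12.11 with RANKL and 5.77 in control. Scin was nearest to Akap6 (0.34), Rufy4 (0.47) and Nyap2 (0.49), and Cttn to Ppif (0.21), Pcdhgc3 (0.24) and Msantd3 (0.26), again with no gene within 0.2. Vcl had 14 genes within 0.2, led by Ermp1 (0.10), Grk3 (0.11) and the creatine kinase gene Ckb (0.12). The others had more genes within that distance. The values were not scaled to a common size of change, so a gene that moves little can have more genes near it. Ptk2b had 156 genes within that distance, led by Arf2 (0.05), Keap1 and Kpna4 (0.06 each), Cbl had 266, led by Tmem131l (0.06), Mycbp2 and Rpain (0.07 each), and Vav3 had 304, led by Osbpl11 and Asxl1 (0.08 each). Tln1, Gsn and Fermt3, which hardly moved, had 1464, 1576 and 1832, led by Epb41 (0.02), Ncdn (0.04) and Mfsd11 (0.05).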

How the data were processed

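Bulk RNA-Seq of cultured mouse macrophages (TruSeq Stranded mRNA) was used from 9 libraries in 3 groups. The authors deposited log2 normalized values, and the submitters' processing notes name Salmon 1.2.1, DESeq2 and GRCm38.p6 without roles. A step was fitted to the values under 12 in each library, and 38.0% to 54.8% of them came within 0.02 of its whole multiples. That is too few to recover reads, so the depth is not known and no count model was run. The linear sums of the normalized values were 30400000 to 31400000 per library with RANKL plus rmCst6, 27700000 to 28000000 with RANKL and 27700000 to 28800000 in control. Correlations across genes were 0.989 to 0.991 within groups and 0.859 to 0.903 between them, and 0 genes had the same value above 0 in any pair of libraries.

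Group means of all 9 libraries were fitted with limma 3.58.1 (R 4.3.3, statmod 1.5.0), with the trend on and robust off, to the 12932 genes with a normalized value of at least 10 in at least 3 libraries, which left out 594. P-values were adjusted over all of these by the Benjamini-Hochberg method. Before use, the fit was tested on simulated data (RANKL plus rmCst6 against RANKL, 200 of 12932 genes changed, 5 runs). There, 57.2% of log2 changes of 0.5, 80.8% of 1, 92.4% of 2 and 99.6% of 4 were called, and 0.0864% of unchanged genes. In the data, 38.0% of genes were called lower and 34.8% higher in that comparison, so these rates need not carry over. Shares within a family used linear values divided by merged exon length (GENCODE M21, 13516 of 13526 identifiers matched). Promoters came from the RefSeq table for GRCm38.p6, in which 8 of the 10 genes were matched. Tables were built with Python 3.11.15, pandas 2.3.3 and numpy 2.4.6.

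The members and gene lists were chosen with earlier results of these data known. The genes named are the 10 members, in each list the 3 further genes whose adjusted p was lowest with RANKL plus rmCst6 against RANKL, all measured paralogs, Ctsk and Acp5, the cell markers, and the 3 nearest genes by distance. Some results that fall under this rule are not reported here. Alternatives were no filter, a floor of 100, a further 8 added, quantile normalization, median centring, no trend, robust fitting, the replicate number as a block, array weights, a fit on the compared groups alone, stricter thresholds and leaving out each library. The longest transcript as the length, for shares and levels per kb, was added after seeing the data.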

Additional observations from a re-analysis of the deposited data

How the results depend on the processing

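Of 630 values (30 fold changes of the 10 genes under 21 alternatives each), 613 kept their direction and call. The exceptions were Gsn and Tln1, as given in the report (Gsn -0.17 with RANKL plus rmCst6 against RANKL after quantile normalization, Tln1 0.12 and 0.11 with RANKL against control after quantile normalization and median centring), and the requirement of at least 2-fold. The cause was not tested. That requirement left 5 of 9 called members with RANKL plus rmCst6 against RANKL (1 higher), 5 of 10 with RANKL against control (1 lower) and 4 of 9 with RANKL plus rmCst6 against control (3 higher and 1 lower), and it left 30, 28 and 18 genes of the lists and 3591, 3403 and 3317 of all genes in those comparisons. Leaving out each library in turn kept 9, 10 and 9 called members, with 83 to 91, 98 to 102 and 88 to 94 list genes and 8948 to 9382, 8909 to 9394 and 8827 to 9385 of all genes. Among the other named genes, 2 changed direction after quantile normalization, Capg (-0.14 with RANKL plus rmCst6 against RANKL) and Arap1 (-0.17 with RANKL plus rmCst6 against control). Deviations of same-numbered libraries from their group means had correlations of -0.0776 to 0.0706, and those of differently numbered libraries -0.082 to 0.0831. With 3 libraries per group, these values cannot decide whether the replicate numbers pair the libraries. With the replicate number as a block, 9, 10 and 9 members and 9358, 9354 and 9267 of all genes were called. Among the other named genes, the block added calls for Svil with RANKL plus rmCst6 against RANKL (-0.23), Rock2 with RANKL against control (-0.13) and Yes1 with RANKL plus rmCst6 against control (-1.56). Precision rests on 3 libraries per group, and genes near 0, such as Scin outside RANKL alone, are measured least well.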
